A study of Mus musculus with 5 samples.

Results

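Cholesterol biosynthesis and its control by the transcription factor SREBP2 were followed through 29 genes: 20 enzymes of the pathway, 6 proteins that control SREBP2, and 3 proteins that carry or esterify sterols. The genes were taken by name, from a list of 30 symbols in which Msmo1 and Sc4mol are the newer and the older symbol of the same gene, which the table lists as Sc4mol. All 29 were found among the 20583 gene symbols of the table. All 29 also passed the filter on low read counts that left 13341 genes to be tested, so no member was lost.

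The RNA came from bone marrow derived macrophages, which are cells grown out of marrow with the growth factor M-CSF. Marrow of mice aged 7 to 8 weeks on a C57BL/6 background was cultured with M-CSF at 25 ng/ml for 7 days, and no other treatment is named. There were 3 wild type libraries (replicates 1, 2 and 3) and 2 libraries of the genotype NICcA (replicates 2 and 3). The labels spell out neither the NICcA allele nor the promoter or Cre that drives it, and they do not say whether each library is a separate animal, so the p-values below measure a spread between libraries that may be technical.

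Cells make cholesterol from acetyl-CoA by way of mevalonate, isoprenoid diphosphates, squalene and lanosterol. SREBP2 is made as a precursor in the endoplasmic reticulum. When sterols are scarce, SCAP escorts it to the Golgi, where the proteases encoded by Mbtps1 and Mbtps2 release a fragment that moves to the nucleus and switches on the enzyme genes. When sterols are plentiful, INSIG proteins hold the SCAP-SREBP2 complex back. Macrophages also take up cholesterol with the particles and cells they engulf, store it as esters made by SOAT1 (ACAT1), and export it.

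The libraries held 57442309 to 76562905 counts each. Hes1, a textbook target of Notch signalling, had 1, 5 and 6 counts in wild type replicates 1, 2 and 3 and 185 and 125 counts in NICcA replicates 2 and 3. Notch1 itself had 67.4 to 78.5 CPM (counts scaled to a common library size) in the wild type libraries, against 84.2 and 87.6 in the NICcA pair. The summed level of 8 macrophage markers was 9466 to 13680 RPKM (a read count divided by transcript length and library size) in wild type and 8179 and 9004 RPKM in NICcA, nearly all of it Lyz2 (8836 to 12880 and then 7490 and 8417 RPKM). Of the 8 markers, 3 had log2 fold changes above 0, among them Fcgr1, which DESeq2 called higher (adjusted p = 0.0413). The other 5 lay below 0. Among them, Cd68 (-0.65), Mertk (-0.57) and Lyz2 (-0.55) had both NICcA libraries below all wild type libraries (18.5% of all genes). B cell markers summed to at most 0.609 RPKM in every library, and Pax5 had 0 counts in 4 of the 5. The 4 mast cell and basophil markers summed to 6.10, 2.997 and 1.42 RPKM in the wild type replicates and to 14.2 and 9.97 RPKM in NICcA, with Mcpt4 at 0 counts in 4 libraries. Dendritic cell markers summed to 18.8 to 41.6 RPKM in wild type and 86.8 and 47.5 in NICcA, neutrophil markers to 60.4 to 118.4 against 120.8 and 146.6, and T and NK cell markers to at most 1.04 in any library. Of the 7 dendritic cell markers, 6 had log2 fold changes above 0, and Clec9a lay below it (-1.14, SE 0.50). Fibroblast markers summed to 3.06 RPKM in wild type 1 and to at most 0.171 elsewhere. NICcA replicate 2 stood apart on 15 interferon and inflammatory genes, which summed to 899 RPKM there, against 85.4 RPKM in NICcA replicate 3 and 34.5 to 55.7 RPKM in wild type.

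The promoters of most pathway genes held a common short motif. In RefSeq promoters of build GRCm38.p6, which matched 24 of the 29 genes, the 250 bases before the start site were searched on both strands. Fdft1, Fdps, Sqle, Stard4 and Soat2 had no promoter entry and were not searched. Only exact matches to the letters given were counted. The letters CCAAT, the box bound by NF-Y, stood in 16 of 17 enzyme promoters and in 20 of the 24 member promoters (83.3%), against 40.2% of the promoters of 9956 tested genes. The GC box GGGCGG, an Sp1 motif, was in 83.3% of the member promoters and 62.2% of those of tested genes. The E-box CACGTG was in 20.8% and 9.65% of them. The sterol regulatory element core TCACNCCAC, the kind of site SREBP2 binds, matched only Hmgcs1 among the 24, against 1.24% of tested genes, and its C form TCACCCCAC, which is contained in it, matched the same gene. TGGGAA, the core recognised by the Notch partner RBPJ, was added after the data were seen and stood in 25.0% of member promoters and 24.0% of those of tested genes. A match is a description of the letters and not of a bound site.

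Promoter stretches of 150 bases, ending at the base before the most upstream start site listed, are shown for 5 genes described below whose libraries separated by genotype (Srebf2, Soat1, Acat2, Mvk and Lbr), with Hmgcs1 as the member holding a sterol regulatory element core. Capitals mark CCAAT on either strand and, in Hmgcs1, that core. The stretches lie at chr15:82147119-82147268 (plus strand) for Srebf2, chr1:156474329-156474478 (minus strand) for Soat1, chr17:12960726-12960875 (minus strand) for Acat2, chr5:114444119-114444268 (plus strand) for Mvk, chr1:181842402-181842551 (minus strand) for Lbr and chr13:119690201-119690350 (plus strand) for Hmgcs1.
Srebf2: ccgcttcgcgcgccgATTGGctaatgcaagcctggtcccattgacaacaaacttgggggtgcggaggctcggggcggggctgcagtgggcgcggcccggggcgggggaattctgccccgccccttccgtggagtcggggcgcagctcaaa
Soat1: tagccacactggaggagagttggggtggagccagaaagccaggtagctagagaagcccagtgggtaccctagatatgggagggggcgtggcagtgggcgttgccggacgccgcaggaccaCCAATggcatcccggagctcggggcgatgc
Acat2: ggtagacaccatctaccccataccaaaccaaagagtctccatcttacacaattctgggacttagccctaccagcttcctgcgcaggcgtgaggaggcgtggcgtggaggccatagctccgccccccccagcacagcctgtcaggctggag
Mvk: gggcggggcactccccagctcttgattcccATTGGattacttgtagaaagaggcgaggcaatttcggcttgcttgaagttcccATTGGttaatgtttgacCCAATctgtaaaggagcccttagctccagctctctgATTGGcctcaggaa
Lbr: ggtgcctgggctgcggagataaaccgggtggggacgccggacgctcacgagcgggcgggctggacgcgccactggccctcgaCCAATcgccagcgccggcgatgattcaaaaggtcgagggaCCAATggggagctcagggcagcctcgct
Hmgcs1: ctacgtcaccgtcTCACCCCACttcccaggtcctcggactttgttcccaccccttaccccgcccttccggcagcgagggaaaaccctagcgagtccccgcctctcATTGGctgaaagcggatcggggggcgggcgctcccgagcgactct
Within these stretches Mvk held 4 CCAAT boxes, Lbr 2, and Srebf2, Soat1 and Hmgcs1 1 each, while Acat2 held 0. The stretches of the other separating members with a promoter are not shown: Pmvk held 1 CCAAT box, and Mbtps2 and Scap 0.

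Most enzymes shared a pattern over the libraries, low in wild type 3 and high in NICcA 2. Levels are given as CPM, the count scaled to a library of 1000000 counts after TMM normalization, always in the order wild type 1, 2, 3 and then NICcA 2, 3, and fold changes as log2 of NICcA over wild type with their standard error (SE) from edgeR. The median log2 fold change of the 20 enzymes was 0.41, with 15 above 0 and 5 below, beside a median of 0.0028 over all genes tested. Wild type replicate 3 had the lowest wild type value in 18 of the 20 enzymes (90%), which holds for 37.0% of all genes. NICcA replicate 2 was above NICcA replicate 3 in 18 of 20 (90%, against 46.9% of all genes). Both extremes, the lowest of all libraries in wild type 3 and the highest in NICcA 2, met in 12 of 20 enzymes (60%), against 12.7% of all genes.

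The spread within each genotype was about as wide as the gap between them. Relative to the wild type mean, the enzymes' median log2 difference was 0.32, 0.12 and -0.46 in wild type replicates 1, 2 and 3, and 0.68 and 0.07 in NICcA replicates 2 and 3. NICcA replicate 3 lay inside the wild type range for 12 of the 20 enzymes (60%, against 44.4% of all genes). The summed enzyme RPKM was 245.3, 219.9 and 162.4 in wild type (209.2 ± 42.5, SD, n = 3) and 294.0 and 220.4 in NICcA (257.2 ± 52.1, SD, n = 2), a gap between the means smaller than the range within either genotype. Without NICcA replicate 2 the enzymes' median log2 fold change was 0.02, and without both that library and wild type replicate 3, a choice made after seeing the data, it was -0.15. In bulk RNA, fewer cells expressing a gene and less of its RNA per cell cannot be told apart.

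**Figure D1:**
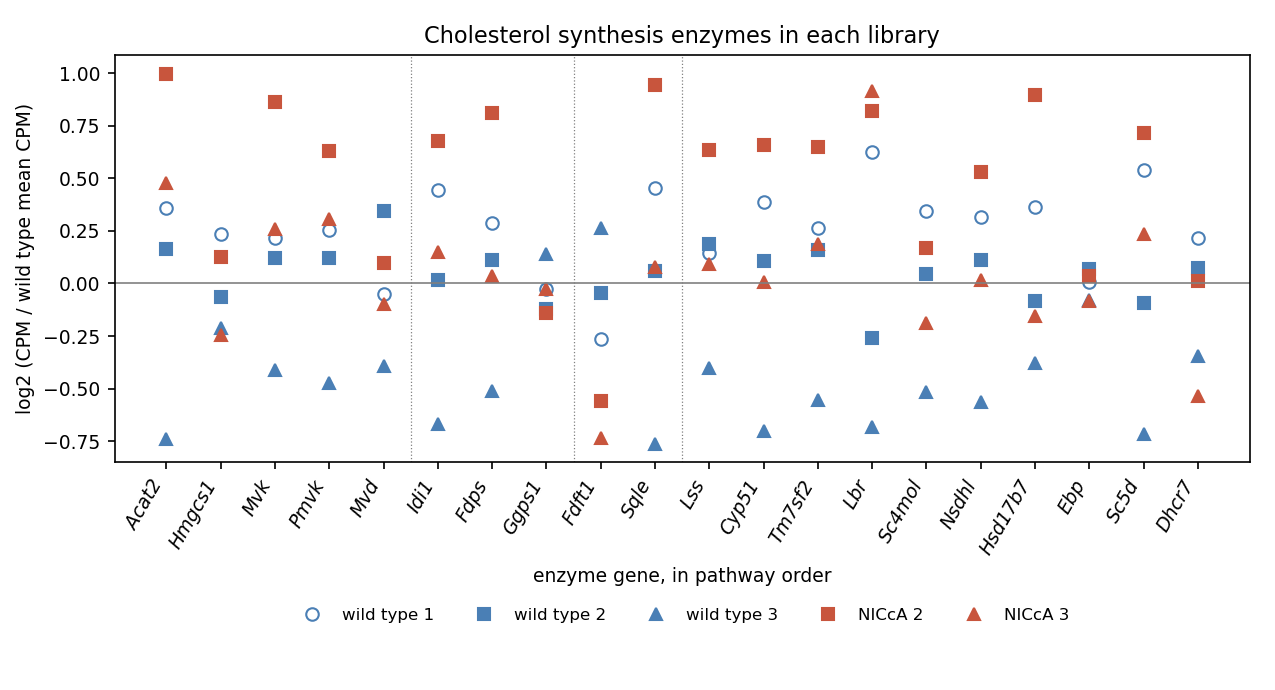
Each symbol is 1 library's level of an enzyme gene (log2 of its CPM over the wild type mean CPM, y axis), with the 20 enzymes in pathway order on the x axis and dotted lines between the steps. Wild type 3 (filled triangles, blue) is the lowest wild type library for 18 genes, and NICcA 2 (red squares) lies above NICcA 3 for 18.

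No member passed edgeR's quasi-likelihood test at a Benjamini-Hochberg adjusted p of 0.05, where 4 of 13341 genes did (0.03%). The adjusted p of the members ran from 0.275 to 0.999. At an unadjusted p below 0.05 there were 4 of 29, namely Srebf2 on the higher side (7.68% of all genes) and Fdft1, Soat1 and Mbtps2 on the lower side (6.83%), beside 14.5% of all genes in either direction. DESeq2 on the same counts called 3 of 29, with Srebf2 higher in NICcA (2.05% of all genes) and Fdft1 and Soat1 lower (1.9%), beside 3.95% in either direction, and limma-voom called 0, beside 0.015%. Both NICcA libraries lay above all wild type libraries for 6 members (Acat2, Mvk, Pmvk, Lbr, Srebf2 and Scap; 18.3% of all genes) and below them for 3 (Fdft1, Mbtps2 and Soat1; 18.5% of all genes). These 9 of 29 stand beside 36.8% of all genes in either direction, and the difference between these shares was not tested.

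**Figure D2:**
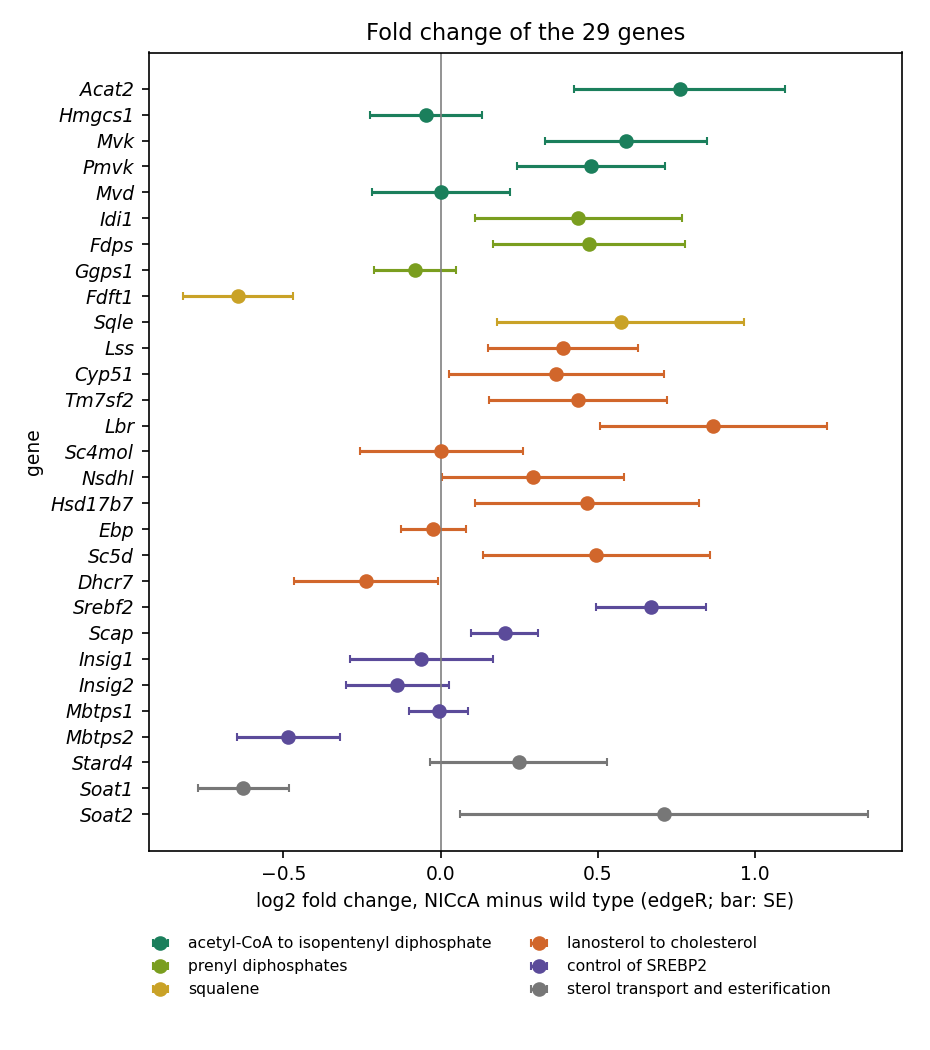
Points give edgeR's log2 fold change of NICcA over wild type for each of the 29 genes (x axis), with bars of 1 SE and colours for the pathway step. Most enzymes lie between 0 and 0.87, Fdft1, Mbtps2 and Soat1 lie lowest, and none passed the adjusted threshold.

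The pathway opens with Acat2, the cytosolic thiolase that joins acetyl-CoA units. Acat2 was at 17.2, 15.1 and 8.04 CPM in wild type (13.4 ± 4.80, SD, n = 3) and at 26.8 and 18.7 CPM in NICcA (22.8 ± 5.73, SD, n = 2). Both NICcA values exceeded all 3 wild type values, by a small margin for NICcA 3, and the log2 fold change was 0.76 (SE 0.34; edgeR adjusted p = 0.361). Hmgcs1, the HMG-CoA synthase, was at 100.1, 81.4 and 73.5 against 92.8 and 71.7 CPM. Its groups overlapped, with the lowest value in NICcA 3, and its log2 fold change was -0.05 (SE 0.18).

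The phosphorylation steps that follow leaned the same way as Acat2. Mvk, mevalonate kinase, was at 10.5, 9.80 and 6.78 against 16.4 and 10.8 CPM, a log2 fold change of 0.59 (SE 0.26; edgeR adjusted p = 0.359). Pmvk, phosphomevalonate kinase, was at 19.1, 17.4 and 11.6 against 24.9 and 19.9 CPM (log2 fold change 0.48, SE 0.23; edgeR adjusted p = 0.384). For both kinases the NICcA libraries lay above every wild type library, but NICcA 3 exceeded wild type 1 by less than 1 CPM. Mvd, the decarboxylase that yields isopentenyl diphosphate, was at 73.0, 95.9 and 57.4 against 80.6 and 70.4 CPM, with both NICcA values inside the wild type range and a log2 fold change of 0.0008 (SE 0.22).

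Of the 3 enzymes of prenyl diphosphates, Idi1 and Fdps followed the libraries and Ggps1 did not. Idi1, which interconverts the 5-carbon units, was at 38.4, 28.6 and 17.8 against 45.2 and 31.4 CPM, with NICcA 3 between wild type 2 and wild type 1 (log2 fold change 0.44, SE 0.33). Fdps, farnesyl diphosphate synthase, was at 53.8, 47.7 and 30.9 against 77.3 and 45.2 CPM (0.47, SE 0.30), so that NICcA 3 lay below 2 of the wild type libraries. The exons of Fdps overlap those of a neighbouring annotated gene on the same strand over 77.4% of their length, so its reads may be shared. Ggps1, which makes geranylgeranyl diphosphate for protein prenylation, stayed within 14.7 to 17.9 CPM in all 5 libraries (log2 fold change -0.08, SE 0.13).

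The 2 enzymes of the squalene step had log2 fold changes of opposite sign, that of Sqle smaller than the spread of its libraries. Fdft1, squalene synthase and the first enzyme committed to sterols, was at 51.2, 59.6 and 74.0 CPM in wild type (61.6 ± 11.5, SD, n = 3) and 41.8 and 37.1 CPM in NICcA (39.4 ± 3.32, SD, n = 2). Both NICcA values were below every wild type value, and Fdft1 was the only enzyme for which this held. Its log2 fold change was -0.64 (SE 0.17), a ratio of 0.64, with an edgeR adjusted p of 0.288 and a DESeq2 adjusted p of 0.0464. DESeq2's call held without wild type 1 (adjusted p = 0.00331) and was lost without wild type 2 (0.148), wild type 3 (0.101), NICcA 2 (0.516) or NICcA 3 (0.297). Sqle, squalene epoxidase and a rate-limiting step, was at 41.0, 31.2 and 17.7 against 57.5 and 31.6 CPM, with NICcA 3 inside the wild type range and a log2 fold change of 0.57 (SE 0.39). Its wild type libraries alone differed 2.32-fold.

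Reads of Fdft1 could include reads of its neighbour. In GENCODE M21, 774 exon bases of Fdft1 (20.9% of its exon length) lie opposite exons of Ctsb, the gene of the abundant lysosomal protease cathepsin B, on the other strand, and whether counting used the strand is not given in the sources used here. Ctsb was at 3431, 4076 and 6097 against 2741 and 2351 CPM, the same order of libraries as Fdft1 (log2 fold change -0.83, SE 0.27; edgeR adjusted p = 0.316; DESeq2 adjusted p = 0.0525). The Fdft1 count equalled 1.49%, 1.46%, 1.21%, 1.52% and 1.58% of the Ctsb count in the 5 libraries. The part of Ctsb in the Fdft1 values was not tested.

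Most enzymes from lanosterol to cholesterol repeated the library pattern. Lss, which closes squalene epoxide into lanosterol, was at 20.9, 21.6 and 14.3 against 29.4 and 20.2 CPM (log2 fold change 0.39, SE 0.24). Cyp51, the 14-alpha demethylase, was at 58.5, 48.1 and 27.5 against 70.5 and 44.9 CPM (0.37, SE 0.34). For both, NICcA 2 was highest, wild type 3 lowest and NICcA 3 inside the wild type range. Exons of Cyp51 overlap those of a neighbour on the other strand over 4.22% of their length.

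Sterol C14 reduction is served by Tm7sf2 and Lbr, and they differed in how the NICcA libraries lay. Tm7sf2 was at 7.81, 7.25 and 4.43 against 10.2 and 7.39 CPM, with NICcA 3 inside the wild type range (log2 fold change 0.44, SE 0.28). Lbr, which is also an anchor of chromatin at the inner nuclear membrane, was at 26.0, 14.1 and 10.5 CPM in wild type (16.9 ± 8.10, SD, n = 3) and 29.8 and 31.8 CPM in NICcA (30.8 ± 1.42, SD, n = 2). Both NICcA values lay above the wild type range, and here NICcA 3 was the higher. Its log2 fold change was 0.87 (SE 0.36), the largest of the enzymes, with an edgeR adjusted p of 0.349 and a DESeq2 adjusted p of 0.191.

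C4 demethylation is carried out by Sc4mol (Msmo1), Nsdhl and Hsd17b7. Sc4mol was at 47.4, 38.6 and 26.1 against 42.0 and 32.8 CPM, both NICcA values inside the wild type range (log2 fold change 0.0023, SE 0.26). Nsdhl was at 14, 12.2 and 7.62 against 16.2 and 11.4 CPM (0.29, SE 0.29). Hsd17b7 was at 8.38, 6.14 and 5.01 against 12.1 and 5.85 CPM (0.46, SE 0.36). In Nsdhl and Hsd17b7 NICcA 2 was the highest library and NICcA 3 again inside the wild type range.

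The last steps held the steadiest enzyme. Ebp, the sterol isomerase, stayed within 38.1 to 42.5 CPM in all libraries (log2 fold change -0.02, SE 0.10). Sc5d, the C5 desaturase, was at 19.7, 12.7 and 8.27 against 22.3 and 15.96 CPM (0.49, SE 0.36), with NICcA 3 inside the wild type range. Dhcr7, the reductase of 7-dehydrocholesterol, was at 31.5, 28.5 and 21.4 against 27.3 and 18.7 CPM (-0.24, SE 0.23), with its lowest value in NICcA 3.

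Among the control genes, Srebf2 separated the genotypes. Srebf2, which encodes SREBP2 and is itself an SREBP2 target, was at 44.0, 36.8 and 33.1 CPM in wild type (38.0 ± 5.55, SD, n = 3) and 68.9 and 51.8 CPM in NICcA (60.4 ± 12.1, SD, n = 2). Both NICcA libraries were above all wild type libraries, although the NICcA pair differed from each other by more than the wild type libraries did. The log2 fold change was 0.67 (SE 0.18), a ratio of 1.59, with an edgeR adjusted p of 0.280 and a DESeq2 adjusted p of 0.0380. DESeq2's call was lost without wild type 2 (adjusted p = 0.172), without wild type 3 (0.140) and without NICcA 2 (0.974), and held without the others.

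The proteins that move and cut SREBP2 had smaller differences. Scap, the escort, was at 34.4, 36.5 and 39.1 against 40.9 and 43.5 CPM (log2 fold change 0.20, SE 0.11; edgeR adjusted p = 0.400), with NICcA above wild type in all libraries. Mbtps1, the site-1 protease, lay between 50.7 and 54.5 CPM throughout (-0.01, SE 0.09). Mbtps2, the site-2 protease, was at 14.9, 13.4 and 17.4 against 9.93 and 11.9 CPM, both NICcA values below the wild type range (-0.48, SE 0.16; edgeR adjusted p = 0.321; DESeq2 adjusted p = 0.156). Mbtps2 shares 36.1% of its exon length with Yy2 on the same strand, and Yy2 had 131 to 199 counts per library (log2 fold change -0.22, SE 0.21).

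The INSIG genes did not separate the genotypes. Insig1, which SREBP2 itself induces, was at 95.4, 98.7 and 61.7 against 90.7 and 72.8 CPM (log2 fold change -0.06, SE 0.23), both NICcA values inside the wild type range. Insig2 was at 23.2, 18.3 and 24.9 against 18.7 and 21.5 CPM (-0.14, SE 0.16), again inside it.

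Of the genes that handle finished cholesterol, Soat1 gave the clearest separation. Soat1, the enzyme that esterifies cholesterol for storage in macrophages, was at 372.3, 364.0 and 461.3 CPM in wild type (399.2 ± 53.9, SD, n = 3) and 253.8 and 263.3 CPM in NICcA (258.6 ± 6.71, SD, n = 2). The lowest wild type value exceeded the highest NICcA value, and the NICcA pair lay close together. The log2 fold change was -0.63 (SE 0.14), a ratio of 0.648, with an edgeR adjusted p of 0.275 and a DESeq2 adjusted p of 0.00683. DESeq2's adjusted p was 0.00414 to 0.0123 without any 1 wild type library, and its call was lost without NICcA 2 (adjusted p = 0.495) and without NICcA 3 (0.0619).

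Soat2, the esterifying enzyme of liver and intestine, was near the limit of detection with 14, 6 and 6 counts in wild type and 17 and 14 counts in NICcA (log2 fold change 0.71, SE 0.65). Stard4, a soluble sterol carrier, was at 27.2, 22.0 and 13.5 against 25.8 and 23.8 CPM, inside the wild type range (0.25, SE 0.28). Over the 9 control and handling genes the median log2 fold change was -0.01 and 4 lay above 0, beside 0.0028 for all genes.

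**Figure D3:**
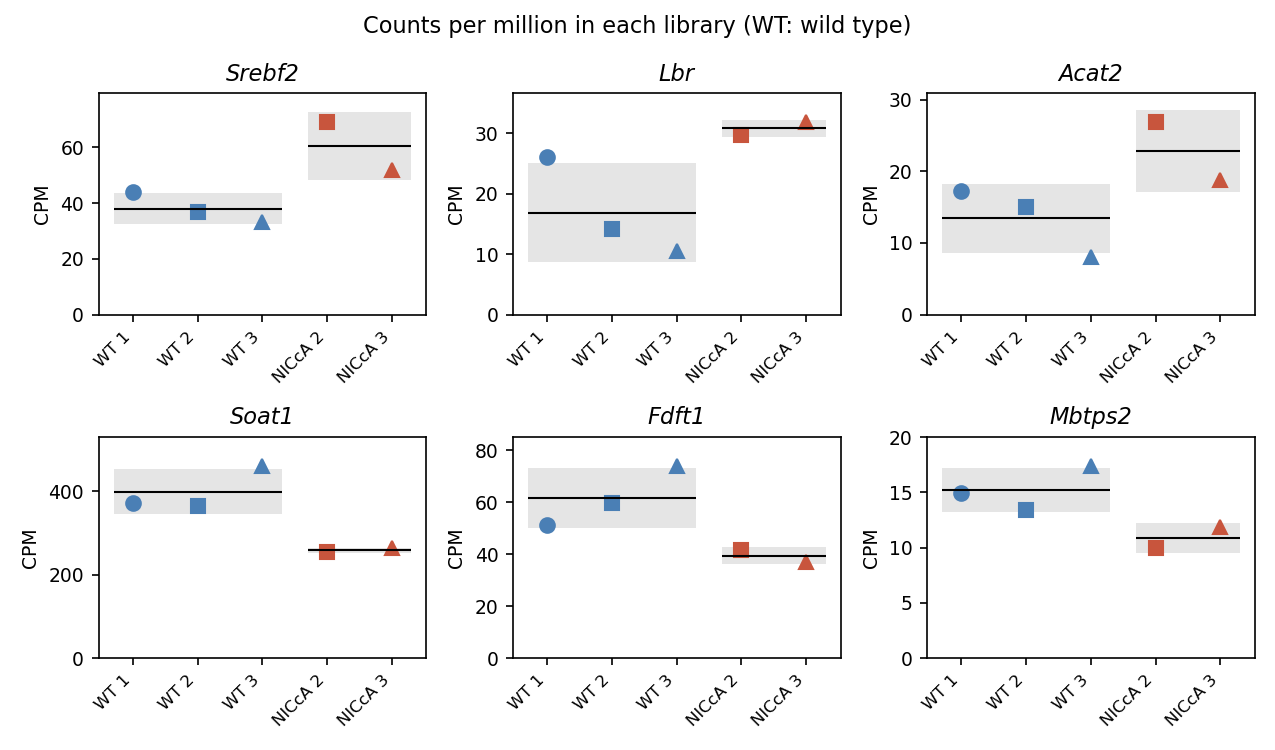
Each panel gives 1 gene's CPM (y axis, from 0) in the 5 libraries (x axis), with lines at the group means and bands of 1 SD. In Srebf2, Lbr and Acat2 both NICcA libraries lie above the wild type libraries, and in Soat1, Fdft1 and Mbtps2 both lie below.

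Levels between genes were compared per transcript length, in the authors' RPKM. Soat1 was the most abundant member in wild type at 65.7 ± 8.25 RPKM (SD, n = 3), followed by Mvd at 33.7 ± 8.47, Insig1 at 25.4 ± 6.32, Fdps at 23.9 ± 6.83 and Hmgcs1 at 20.5 ± 3.81. Srebf2 stood at 6.56 ± 1.12 RPKM in wild type and 11.3 ± 2.22 in NICcA. Mbtps2 (2.50 ± 0.325), Hsd17b7 (1.13 ± 0.325) and Soat2 (0.0520 ± 0.0353) closed the order. The wild type ranges of neighbours overlapped in 25 of the 28 neighbouring pairs, and they did not overlap between Soat1 and Mvd, between Mbtps2 and Hsd17b7, and between Hsd17b7 and Soat2. Summed by step, the wild type mean was 74.3 ± 15.4 RPKM for acetyl-CoA to isopentenyl diphosphate, 37.1 ± 9.55 for the prenyl diphosphates, 25.6 ± 0.895 for squalene and 72.3 ± 17.9 for lanosterol to cholesterol. The squalene sum varied least, and across the wild type libraries Fdft1 and Sqle ran in opposite orders.

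Genes of neighbouring pathways were read from the same fit, by their counts. Of 13 genes of SREBP1 and fatty acid synthesis, 11 had log2 fold changes above 0 (84.6%, beside 50.5% of all genes; median 0.28) and 5 separated by genotype, all with NICcA above (18.3% of all genes). Fasn, fatty acid synthase, was at 122.2, 122.8 and 87.4 against 209.8 and 180.5 CPM (0.82, SE 0.18; edgeR adjusted p = 0.275; DESeq2 adjusted p = 0.00562). Elovl6, an elongase, was at 6.42, 3.85 and 2.52 against 11.5 and 9.72 CPM (1.32, SE 0.37; edgeR adjusted p = 0.288). DESeq2 called these 2 genes of the 13 (2.05% of all genes were called higher), and edgeR called 0 with 2 at an unadjusted p below 0.05 (7.68% of all genes on the higher side).

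Genes of sterol export and sterol movement had medians below 0. Of 14 genes of LXR and sterol efflux, 4 had log2 fold changes above 0 (28.6%, beside 50.5% of all genes; median -0.15), and 5 separated by genotype, all with NICcA below (18.5% of all genes). Nceh1, which hydrolyses stored cholesterol esters, was at 351.1, 353.6 and 402.8 against 191.0 and 256.1 CPM (-0.72, SE 0.16; edgeR adjusted p = 0.275), and was the 1 gene of the 14 that DESeq2 called (1.9% of all genes were called lower). Mylip, an LXR-induced ubiquitin ligase, was at 43.7, 65.2 and 77.6 against 37.3 and 39.9 CPM (-0.69, SE 0.24). Of 15 genes of sterol movement between membranes, 5 were above 0 (33.3%; median -0.13), while 6 separated with NICcA below and 3 with NICcA above (18.5% and 18.3% of all genes). DESeq2 called 2 of them lower: Lipa, the lysosomal acid lipase, was at 390.6, 462.4 and 654.1 against 288.9 and 294.6 CPM (-0.78, SE 0.23; edgeR adjusted p = 0.296), and Osbpl9, an oxysterol-binding protein relative, at 135.4, 140.4 and 152.7 against 90 and 108.6 CPM (-0.52, SE 0.13; edgeR adjusted p = 0.279). edgeR called 0 genes of either list, with 1 higher and 7 lower at an unadjusted p below 0.05 (7.68% and 6.83% of all genes).

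The ubiquitin machinery that degrades sterol enzymes and the prenyl branches had medians nearer 0. Of 14 genes of sterol-regulated degradation, 6 were above 0 (42.9%, beside 50.5% of all genes), with a median of -0.05. Of these 14, 3 separated with NICcA below (18.5% of all genes). The smallest p belonged to Marchf6 (log2 fold change -0.42, SE 0.15), a ligase that targets squalene epoxidase, and then Syvn1 (-0.15, SE 0.12). Of 13 genes of the prenyl branches, 4 were above 0 (30.8%), with a median of -0.02. Of these 13, 2 separated with NICcA below (18.5% of all genes), Nus1 of dolichol synthesis (-0.28, SE 0.09) and Chm, a Rab escort protein (-0.27, SE 0.13). Neither edgeR nor DESeq2 called any of these 27 genes (0.03% and 3.95% of all genes). Marchf6 and Nus1 were the ones at an unadjusted edgeR p below 0.05 (6.83% of all genes on the lower side).

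Measures that moved with the enzymes are set beside them. All 15 proliferation genes had a log2 fold change above 0 (beside 50.5% of all genes), with a median of 0.82. They differed from the wild type mean by a median log2 of 0.71, 0.03 and -0.79 in wild type and 1.03 and 0.89 in NICcA. Wild type 3 was thus lowest and NICcA 2 highest, as in the enzymes, but NICcA 3 lay with NICcA 2 for proliferation and with wild type for the enzymes. DESeq2 called Mcm6 and Mcm2 of this list (2.05% of all genes were called higher). edgeR called 0, with 4 at an unadjusted p below 0.05 (7.68% of all genes on the higher side). Il1b and Il12b, cytokine genes with the smallest p of the interferon and inflammatory list, were at 501 and 62.8 CPM in NICcA 2, at 76.4 and 7.60 in NICcA 3, and at no more than 16.6 and 1.90 in wild type. DESeq2 called 3 of those 15 genes, the 2 named and Cxcl10 (2.05% of all genes were called higher). By edgeR 0 were called, with 11 at an unadjusted p below 0.05 (7.68% of all genes on the higher side). The summed levels of 3 further lists were also highest in NICcA 2 and lowest in wild type 3. These were the interferon and inflammatory genes, the dendritic cell markers (led by Ccr7) and the mast cell markers. Among the last, DESeq2 called Cpa3 higher (adjusted p = 0.0488). Wild type 3 as lowest library and NICcA 2 as highest met in 73.3% of proliferation genes and 66.7% of interferon and inflammatory genes. This stands beside 60% of the enzymes and 12.7% of all genes. In fatty acid synthesis they met in 46.2%, with median differences of 0.08, 0.15 and -0.21 in wild type and 0.49 and 0.11 in NICcA. In the LXR, sterol movement, degradation and prenyl lists they met in at most 7.14%. The part of any of these measures in the enzyme values was not tested.

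**Figure D4:**
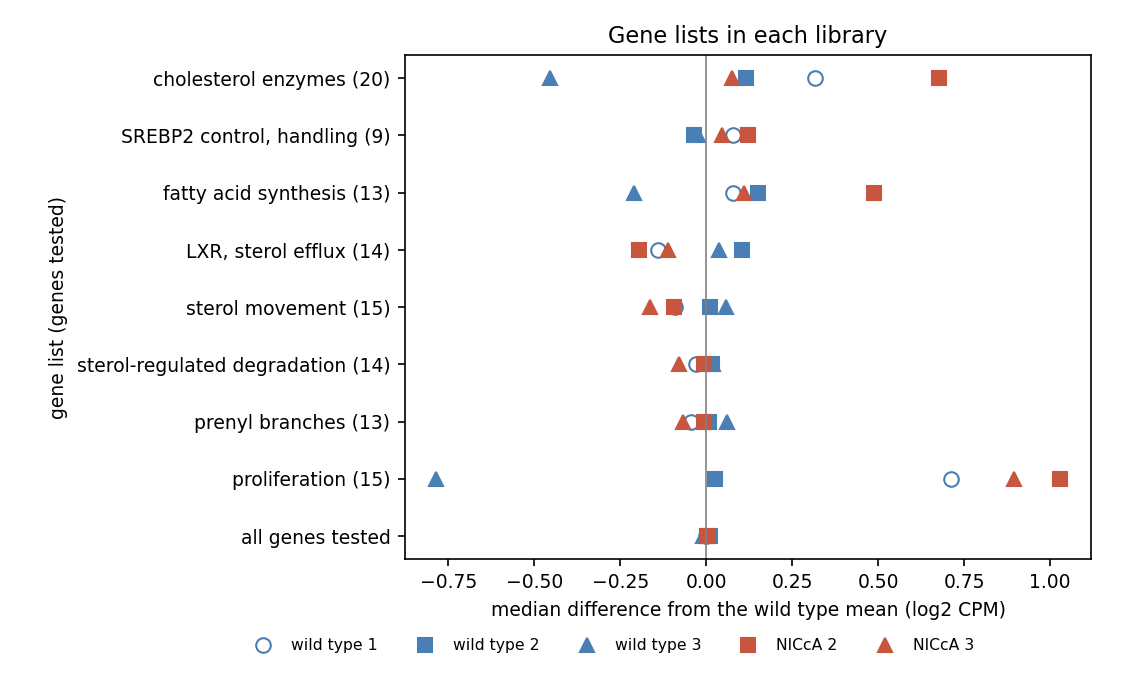
Each symbol is 1 library's median difference from the wild type mean (log2 CPM, x axis) over the genes of a list (y axis, with the number of genes tested). The cholesterol enzymes run from -0.46 in wild type 3 to 0.68 in NICcA 2 with NICcA 3 at 0.07, while in proliferation both NICcA libraries lie at or above 0.89.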

How the data were processed

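The deposited table gives a read count and an RPKM value per transcript and library, per the file headers. Bowtie 0.12.2 and the genome build mm8 are named in the submitters' processing notes without a role, and no source used here gives the counting tool or its strand setting. A further deposited table that holds only RPKM was not used here. The authors' counts were fitted as deposited by the quasi-likelihood test of edgeR (version 4.0.16, under R 4.3.3; filterByExpr and TMM factors, Benjamini-Hochberg adjustment over the 18267 transcripts that passed the filter, adjusted p below 0.05), and each gene was represented by its transcript with the highest mean count. Of 47 symbols that a spreadsheet had turned into dates, 46 were renamed by RefSeq accession. CPM values were computed here from the counts and TMM factors. The common biological coefficient of variation was 22.5%. The fits were tested on simulated data.

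Alternatives were DESeq2 1.42.0, limma-voom (limma 3.58.1), limma on log2(RPKM + 1) and log2(RPKM + 0.1) of the authors' RPKM, other scalings and filters, 1 row per gene, a replicate block and leaving out libraries. Every member is named. Since edgeR called no gene of the other pathway and response lists, the 2 of lowest p in each are named, with any gene DESeq2 called, and Notch1 and Hes1 as a check of the genotype labels. The members and lists were chosen with earlier results of these data known. Exon overlaps were read from GENCODE M21, which is on another build than the files, so no coordinates of the files were used. Figures were drawn with Python 3.11.15 and matplotlib 3.10.9.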

Additional observations from a re-analysis of the deposited data

How the results depend on the processing

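With 3 and 2 libraries, each genotype's spread rests on few values, and where 1 NICcA library was left out the other was assumed to vary like the wild type libraries. Direction was kept under all 18 alternatives by Srebf2 (log2 fold change 0.36 to 0.86), Soat1 (-0.69 to -0.48), Fdft1 (-0.76 to -0.48), Mbtps2 (-0.62 to -0.25), Acat2 (0.21 to 1.02), Mvk (0.088 to 0.86), Pmvk (0.12 to 0.64), Lbr (0.62 to 1.33) and Scap (0.16 to 0.31), and under 15 of 15 by Soat2 (0.28 to 1.36). Of these genes, all but Soat2 had groups that did not overlap, so leaving out libraries could hardly turn their sign. The lowest values of Acat2, Mvk and Pmvk came without wild type 3 and NICcA 2. The other 19 members changed sign at least once. edgeR called 4 genes in all, 11 with no low-count filter, 8 with its newer dispersion setting, and 0 with the replicate number as a block. limma-voom called 2, limma on either RPKM scale 2, and DESeq2 527, of which 3 were members. Leaving out libraries gave 0 to 44 genes (44 without NICcA 3), 0 members by edgeR, and 10 to 22 members not overlapping, a count that rises with fewer libraries to compare. The 10 to 22 members are given without the share of all genes that did not overlap in the same fits. That count therefore does not show whether the members separated more often than other genes. DESeq2 called 5 members without wild type 1, where it called 9.26% of all genes. It called 1 member each without wild type 2 (2.24% of all genes) and without wild type 3 (2.95%). The DESeq2 fits without a library, the newer edgeR setting and the fit without both wild type 3 and NICcA 2 were chosen after seeing the data.

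The replicate block gave an enzyme median of 0.61 and a control and handling median of 0.058, with Hmgcs1 at 0.077 and Insig1 at 0.058, and it changed no other sign among the members. Only 2 numbers are shared between the genotypes. The correlation of same-numbered libraries' deviations was 0.21 (replicate 2) and 0.17 (replicate 3) over genes. With 2 NICcA libraries the deviations mirror each other, so the different-numbered values were -0.21 and -0.17 by construction. These correlations cannot decide whether the numbers pair the libraries. The main fit did not use the numbers. Leaving out libraries moved the enzyme median from -0.15 to 0.64 and the control and handling median from -0.018 to 0.091.

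Without scaling factors the median of all genes was 0.11, and the control and handling median was 0.10, Hmgcs1 0.052, Ggps1 0.025, Ebp 0.082, Insig1 0.040 and Mbtps1 0.10, so these 5 genes turned positive but stayed below the shifted median. On log2(RPKM + 1) the same median and genes gave 0.084, 0.063, 0.029, 0.087, 0.072 and 0.097, and on log2(RPKM + 0.1) 0.091, 0.066, 0.034, 0.091, 0.075 and 0.11. Sc4mol was at -0.0004 with upper-quartile scaling and -0.0012 with 1 row per gene, where Mvd was at -0.0025.

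Genes whose sign turned when libraries were left out ranged as follows. Among the early enzymes Hmgcs1 ran from -0.34 to 0.13, Mvd from -0.26 to 0.21, Idi1 from -0.10 to 0.73, Fdps from -0.17 to 0.81 and Ggps1 from -0.14 to 0.049. Sqle ran from -0.19 to 0.94, Lss from -0.073 to 0.63, Cyp51 from -0.25 to 0.66 and Tm7sf2 from -0.028 to 0.65. Sc4mol ran from -0.39 to 0.22, Nsdhl from -0.20 to 0.53, Hsd17b7 from -0.31 to 0.90, Ebp from -0.13 to 0.040, Sc5d from -0.024 to 0.87 and Dhcr7 from -0.68 to 0.012. Among the others, Insig1 ran from -0.42 to 0.091, Insig2 from -0.26 to 0.051, Mbtps1 from -0.057 to 0.043 and Stard4 from -0.047 to 0.49. The cause of these turns was not tested.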
